A study of Mus musculus with 10 samples.

Results

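The 34 genes described here encode chaperones, folding enzymes and degradation factors of the endoplasmic reticulum (ER), together with the translocon and ER exit proteins that work beside them. They were taken as a fixed list of gene names, matched to the Ensembl identifiers of 2 tables of liver read counts, each of which held 55487 identifiers. All 34 were found in both tables, and all 34 passed the filter on low counts in both. The rule that picks them reads gene names and no measured value, but the list was drawn up with earlier results of these data known.

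Bulk RNA was sequenced from the liver that regrows after partial hepatectomy (PHx), the surgical removal of most of the organ, in C57BL/6J mice that were 8 weeks old. In the inhibitor experiment, 4 libraries came from mice given SSO at 40 mg/kg and 4 from mice given its vehicle, in both cases 1 day before PHx, with liver taken 48 hours after surgery. In the diet experiment, 3 libraries came from mice fed a high-fat diet (HFD) and 3 from mice kept on chow, for 7 days before PHx, with liver taken 40 hours after surgery. SSO is not spelled out in the labels; in work on CD36, a receptor for fatty acids, the abbreviation usually stands for sulfosuccinimidyl oleate. The labels name no transgene or gene deletion for these groups. There was no liver without surgery in either table, so the regeneration itself had no comparison here. The labels describe all mice as male.

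Secreted and membrane proteins enter the ER through the Sec61 channel and fold there with the help of the Hsp70 chaperone BiP (Hspa5), the Hsp90 chaperone GRP94 (Hsp90b1), the sugar-binding chaperones calreticulin and calnexin, and enzymes that form disulfide bonds. Proteins that fail to fold are pulled back into the cytosol and degraded, a route called ER-associated degradation (ERAD). Hepatocytes make most plasma proteins and carry a heavy folding load, and when unfolded protein builds up, the sensors IRE1 (Ern1), PERK (Eif2ak3) and ATF6 raise the transcription of many of these genes.

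Many of these promoters share a short sequence, the ER stress element (ERSE), which is why it is shown here. Its letters are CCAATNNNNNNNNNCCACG, where the first part is known as a site of the factor NF-Y and the last part as a site of ATF6 and XBP1. Promoters from RefSeq (build GRCm38.p6, 250 bases before to 50 after the start) were at hand for 29 of the 34 genes, and both strands were searched. The element was present in 9 of the 29 genes, against 37 of 27025 genes with a promoter (0.137%). ERSE was first described from promoters of genes of this kind, so its frequency among them is background. Of the 125 genes in 6 other lists of ER pathways, 101 had a promoter entry, and 0 of these held the element. The matches follow on the strand of each gene, with the element in capitals and up to 15 bases on either side.

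Hspa5: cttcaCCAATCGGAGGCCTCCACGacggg
Hsp90b1: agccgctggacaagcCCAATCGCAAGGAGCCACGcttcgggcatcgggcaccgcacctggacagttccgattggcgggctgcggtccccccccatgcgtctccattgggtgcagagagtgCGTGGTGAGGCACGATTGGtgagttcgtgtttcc
Creld2: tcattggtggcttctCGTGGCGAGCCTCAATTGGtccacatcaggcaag
Dnajc3: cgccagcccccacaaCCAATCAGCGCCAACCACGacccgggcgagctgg
Calr: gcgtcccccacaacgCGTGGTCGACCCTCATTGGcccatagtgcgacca
Canx: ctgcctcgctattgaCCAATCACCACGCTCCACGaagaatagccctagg
Pdia6: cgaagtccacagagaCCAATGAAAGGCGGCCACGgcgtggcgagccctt
Syvn1: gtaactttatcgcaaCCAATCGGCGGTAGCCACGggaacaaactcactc
Derl3: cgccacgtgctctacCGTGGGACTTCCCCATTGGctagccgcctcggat

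The Hspa5 stretch lies at chr2:34772020-34772048 on the plus strand, with the element ending 46 bases before the RefSeq start. GENCODE begins an Hspa5 exon further upstream, so it is shown with 5 flanking bases only. Hsp90b1 (chr10:86705518-86705671, minus strand) held 2 elements in opposite directions. Creld2 (chr15:88819505-88819553), Dnajc3 (chr14:118937812-118937860), Pdia6 (chr12:17266476-17266524), Syvn1 (chr19:6046517-6046565) and Derl3 (chr10:75893227-75893275) lie on the plus strand, and Calr (chr8:84847060-84847108) and Canx (chr11:50325785-50325833) on the minus strand. In Creld2, Calr and Derl3 the element ran in the reverse direction. The shorter ERSE-II (ATTGGNCCACG) was found in Herpud1 and Dnajb11, 2 of 29 genes against 1 of 101 in the other ER lists and 0.0444% of all genes, and the Dnajb11 match, past the start, is not shown. The Herpud1 match (chr8:94386362-94386402, plus strand) ends 41 bases before the start, and it is shown because it marks the one ERAD promoter of the set with this form.

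Herpud1: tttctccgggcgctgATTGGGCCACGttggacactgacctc

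The element TGACGTGG, called UPRE, was found in 3 of 29 genes against 6 of 101 in the other ER lists (5.94%) and 0.714% of all genes. Hyou1, Manf, Derl1, Sec61a1 and Ostc had no promoter entry. A match describes the letters of the window and is not evidence of a bound site.

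Sequencing depth was 25.2 to 30.4 M counts per library for SSO and vehicle livers, and 31.9 to 39.9 M for HFD and chow livers. Levels are given as CPM, counts per 1 M counts of the library, with trimmed-mean scaling. Xist was present at 698 to 1772 CPM and 4 Y-linked genes had 0 counts in all SSO and vehicle libraries, so these mice were female by their transcripts although labelled male; HFD and chow mice were male. The vehicle group was the least uniform. The first principal component, with 45.8% of the variance, had SSO libraries from -40.5 to -31.8, vehicle 2 at -52.5 outside that range, vehicle 4 at 2.89, and vehicle 1 and vehicle 3 far off at 97.3 and 92.8. Defining hepatocyte transcripts were abundant in every library. In whole liver, fewer cells of a type and less RNA per cell cannot be told apart.

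ER chaperone transcripts were measured at lower levels in SSO livers than in vehicle livers, but few of the differences passed the test over all genes. Of the 34 genes, 31 had a log2 fold change below 0, and the median was -0.80, against -0.04 over all 15788 genes tested. Creld2 was the only gene of the set that passed edgeR's quasi-likelihood test at a Benjamini-Hochberg adjusted p under 0.05, so 1 of 34 fell and 0 rose, where 0.133% of all genes fell and 0.317% rose. At an unadjusted p under 0.05, 20 of 34 were lower (12.5% of all genes) and 2 were higher, Selenok and Sec61b (7.96% of all genes). In 15 of 34 all 4 SSO libraries lay below all 4 vehicle libraries (5.62% of all genes), and in 1, Sec61b, all 4 lay above (6.14% of all genes).

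**Figure D1:**
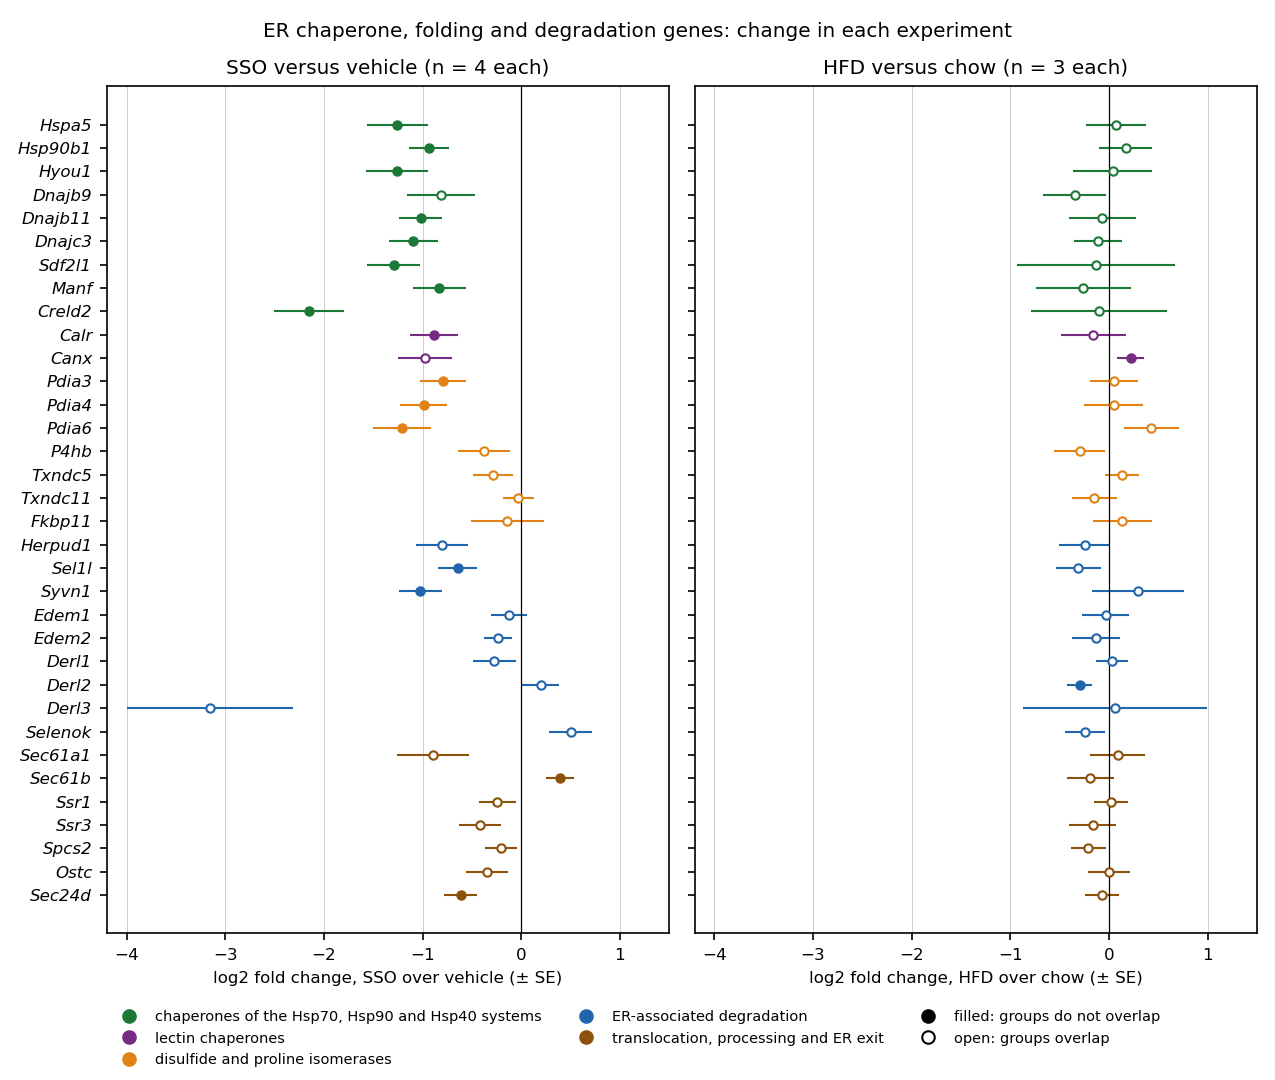
Log2 fold change (x axis, ± SE) of each of the 34 genes (y axis), SSO over vehicle on the left (n = 4 each) and HFD over chow on the right (n = 3 each), coloured by role, with filled points where the groups do not overlap. In the left panel 31 of 34 points lie below 0, and in the right panel 19 of 34.

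The shift was seen in the level of each library. The mean log2 CPM over the 34 genes was 6.89, 6.57, 7.00 and 6.78 in SSO 1 to 4, against 7.71, 6.96, 7.51 and 7.71 in vehicle 1 to 4. Vehicle 2 thus lay within the range of the SSO libraries, and it was the lowest vehicle library for 27 of 34 genes (33.7% of all genes). SSO 2 was the lowest SSO library for 27 of 34 (31.9% of all genes). The share of counts from mitochondrially encoded genes was 16.9%, 16.6%, 15.2% and 17.6% in SSO 1 to 4, against 4.99%, 22.5%, 11.5% and 9.15% in vehicle 1 to 4. It was highest in vehicle 2, where the ER genes were lowest among vehicle livers, and its part in the result was not tested. In a fit without the mitochondrially encoded genes the median was -0.79 and Creld2 was still the 1 call. That fit only drops those rows, so it cannot show whether libraries with a high share differ in other ways.

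**Figure D2:**
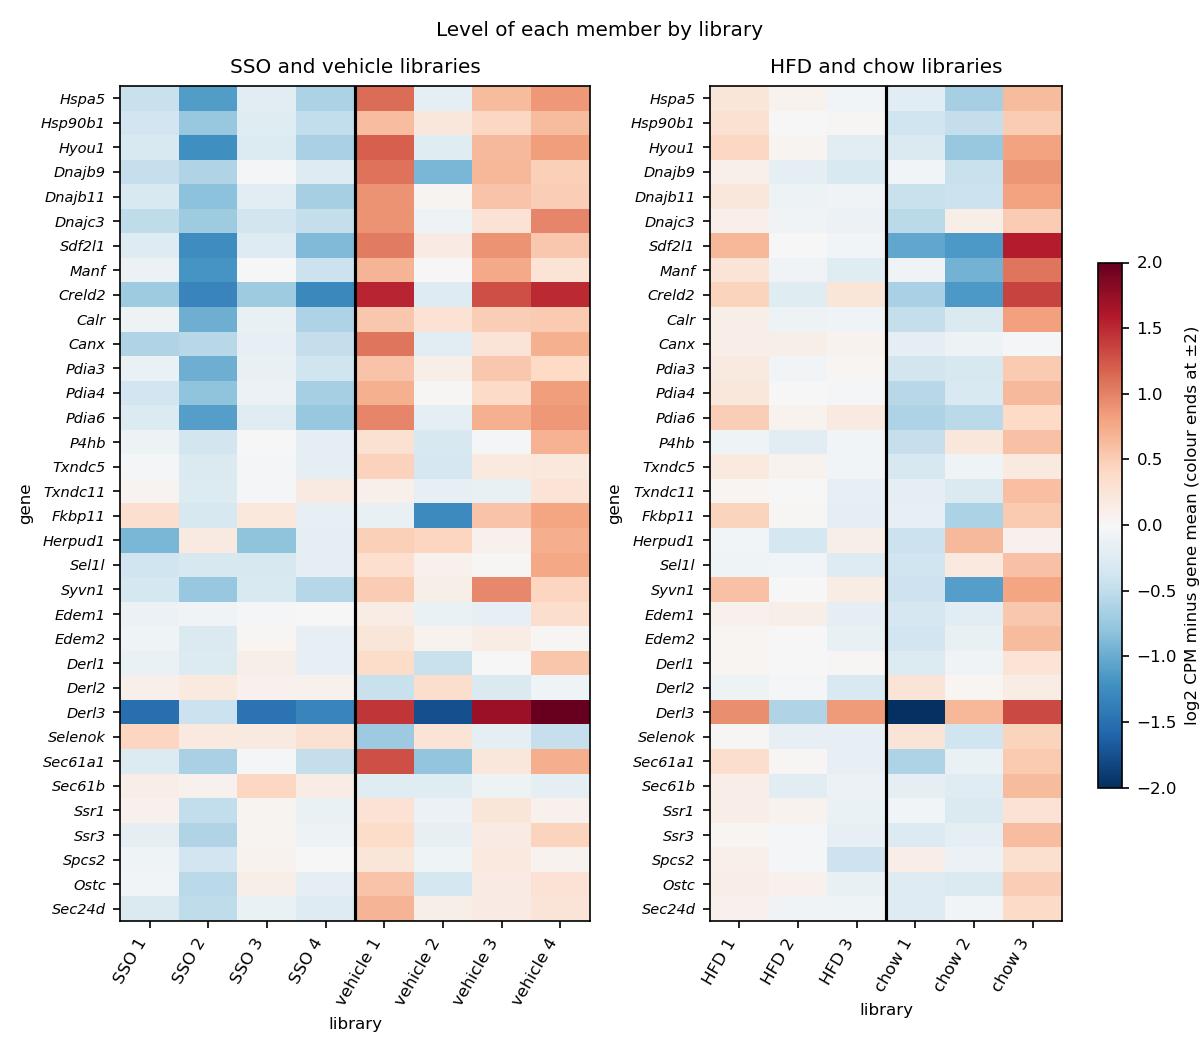
Log2 CPM of each gene (y axis) in each library (x axis), minus its mean over the experiment, with SSO left of vehicle and HFD left of chow; the colour scale ends at ±2. SSO 2 is blue and vehicle 1, 3 and 4 are red for most chaperones, vehicle 2 is pale, and chow 3 is red for nearly all genes.

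Chaperones of the Hsp70, Hsp90 and Hsp40 systems and their cofactors, a list in which Creld2 was also placed, lay on one side. All 9 were lower at an unadjusted p under 0.05 (12.5% of all genes), with a median log2 fold change of -1.09. In 8 of 9 the groups did not overlap (5.62% of all genes were lower without overlap). Creld2 (ENSMUSG00000023272, chromosome 15, 88819646 to 88826683, GRCm38), an ER stress protein with disulfide isomerase activity, measured 38.0, 24.9, 38.0 and 25.5 CPM in SSO 1 to 4, against 179, 52.4, 153 and 176 CPM in vehicle 1 to 4. Each SSO value lay below the lowest vehicle value, which was that of vehicle 2. Creld2 fell 4.44-fold, a log2 fold change of -2.15 ± 0.36 (SE, n = 4 per group; edgeR adjusted p = 0.0390).

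Hspa5 (ENSMUSG00000026864, chromosome 2, 34771970 to 34777547), which encodes BiP, the main chaperone of the ER lumen, measured 536, 335, 620.5 and 470.0 CPM in SSO livers, against 1577, 634, 1134 and 1335 CPM in vehicle livers. The groups did not overlap, but SSO 3 and vehicle 2 were close. Its log2 fold change was -1.26 ± 0.31, with an edgeR adjusted p of 0.106. Hsp90b1 (ENSMUSG00000020048, chromosome 10, 86690209 to 86705509), which encodes GRP94 and helps fold integrins and Toll-like receptors, measured 359, 276, 396 and 332 CPM in SSO livers, against 715, 550.5, 621 and 727 CPM in vehicle livers. Here vehicle 2 stood well above the SSO libraries (log2 fold change -0.94 ± 0.20, edgeR adjusted p = 0.0866). Of the Hsp90b1 exon length, 10.3% overlaps annotated exons on the other strand and 5.38% on the same strand. Strand use in counting is not given in the sources used here, so a part of its reads may belong elsewhere.

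The cofactors of BiP were measured lower too. Hyou1, the exchange factor that reloads BiP with ATP, measured 151, 80.1, 156 and 120.1 CPM in SSO livers, against 429, 159, 295 and 333 CPM in vehicle livers. Sdf2l1, a partner of BiP and of its Hsp40 helper, measured 56.8, 28.6, 56.9 and 36.7 CPM, against 139, 75.6, 126 and 97.9 CPM. Their log2 fold changes were -1.26 ± 0.31 and -1.29 ± 0.27, with edgeR adjusted p-values of 0.106 and 0.0779. For Hyou1, SSO 3 nearly touched vehicle 2, while for Sdf2l1 the groups were further apart.

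Dnajb9 was the 1 gene of the 9 with overlapping groups. This Hsp40 protein, which guides BiP to IRE1 and to ERAD clients, measured 37.6, 34.1, 50.7 and 43.2 CPM in SSO livers, against 109.9, 27.3, 82.0 and 71.6 CPM in vehicle livers. Vehicle 2 lay below every SSO library (log2 fold change -0.81 ± 0.34, edgeR adjusted p = 0.220). Manf, a secreted factor that binds BiP, measured 129.6, 62.0, 139 and 105 CPM in SSO livers, against 226, 142, 236 and 170.3 CPM in vehicle livers (log2 fold change -0.83 ± 0.27, edgeR adjusted p = 0.144). Of its exon length, 8.85% overlaps genes on the other strand. Its SSO 3 and vehicle 2 values were nearly equal. The remaining Hsp40 genes, Dnajb11 and Dnajc3, had log2 fold changes of -1.02 and -1.09 with edgeR adjusted p-values of 0.0831 and 0.0910, and neither overlapped.

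**Figure D3:**
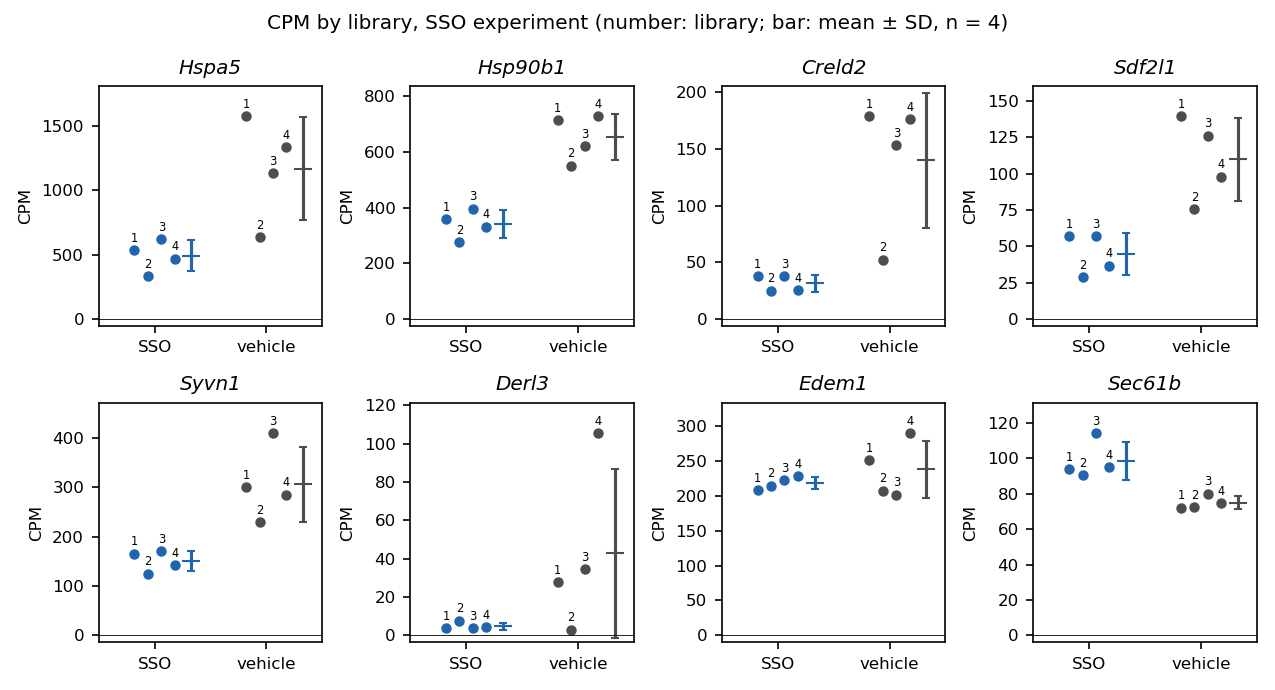
CPM (y axis) of 8 genes in the SSO and vehicle libraries (x axis), each point 1 library with its number and each bar the mean ± SD (n = 4). In Hspa5, Hsp90b1, Creld2, Sdf2l1 and Syvn1 every SSO library lies below every vehicle library, Derl3 and Edem1 overlap, and Sec61b lies the other way.

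The lectin chaperones, which hold glycoproteins until they are folded, had a median log2 fold change of -0.93. Calr measured 766, 421, 746 and 535 CPM in SSO livers, against 1194, 1008, 1159 and 1185 CPM in vehicle livers. This was one of the clearest separations of the set, since the vehicle libraries lay close together (log2 fold change -0.88 ± 0.24, edgeR adjusted p = 0.112). Canx, the membrane-bound relative of Calr, measured 127, 131, 172 and 138 CPM in SSO livers, against 407, 165, 231 and 317 CPM in vehicle livers. Vehicle 2 fell inside the SSO range for Canx (log2 fold change -0.97 ± 0.27, edgeR adjusted p = 0.112).

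Disulfide and proline isomerases divided into genes with large and with small differences. Pdia4, a lumenal disulfide isomerase, measured 192, 143, 230.1 and 157 CPM in SSO livers, against 409, 253, 326 and 446 CPM in vehicle livers, without overlap (log2 fold change -0.99 ± 0.24, edgeR adjusted p = 0.106). Pdia3, which works with the lectin chaperones, and Pdia6, which also damps IRE1, had log2 fold changes of -0.79 ± 0.24 and -1.21 ± 0.29 and no overlap either. P4hb, the classical protein disulfide isomerase, was the most abundant of the 34 per length, at a mean of 500.4 CPM per kb of exon in SSO livers and 650.2 CPM per kb in vehicle livers. Its log2 fold change was -0.38 ± 0.26, and its groups overlapped. Txndc5, Txndc11 and the proline isomerase Fkbp11 lay at -0.29, -0.03 and -0.14, all with overlap. Of the Txndc5 exon length, 11.9% overlaps genes on the other strand. The median of these 7 genes, which do not include Creld2, was -0.38.

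ERAD genes were the most mixed group, with a median log2 fold change of -0.27. In 2 of 9 genes all SSO libraries lay below all vehicle libraries (5.62% of all genes). Those were the ubiquitin ligase Syvn1 and its adaptor Sel1l, which form the core of the main ERAD complex. Syvn1 (ENSMUSG00000024807, chromosome 19, 6046576 to 6053712) measured 165, 125, 171 and 142 CPM in SSO livers, against 301, 229, 411 and 285 CPM in vehicle livers (log2 fold change -1.02 ± 0.22, edgeR adjusted p = 0.0831). Sel1l measured 99.4, 105, 105 and 116 CPM in SSO livers, against 167, 139, 134 and 226 CPM in vehicle livers (log2 fold change -0.65 ± 0.19, edgeR adjusted p = 0.129). For both genes even the lowest vehicle library stood above the highest SSO library.

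Herpud1, which assembles the Syvn1 complex, measured 73.8, 159, 80.1 and 123 CPM in SSO livers, against 194, 188, 149 and 231 CPM in vehicle livers. SSO 2 was its highest SSO library, unlike for the chaperones, and reached above vehicle 3 (log2 fold change -0.81 ± 0.26, edgeR adjusted p = 0.143). Edem1, a lectin that trims mannose from misfolded glycoproteins, measured 208, 214, 222 and 228 CPM in SSO livers, against 251, 207, 202 and 289.9 CPM in vehicle livers. The log2 fold change of Edem1 was -0.12 ± 0.18, within the spread of the vehicle libraries.

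The derlins, which help proteins leave the ER, went separate ways. Derl3 (ENSMUSG00000009092, chromosome 10, 75893413 to 75895941) had the lowest log2 fold change of the 34, -3.15 ± 0.84 (edgeR adjusted p = 0.113). It measured 3.64, 7.68, 3.74 and 4.15 CPM in SSO livers, against 27.8, 3.09, 34.5 and 106 CPM in vehicle livers. Vehicle 2 was the lowest of all 8 libraries and vehicle 4 alone accounts for most of the vehicle mean, so the groups overlapped. Derl3 is also strongly expressed in plasma cells, and the summed level of 5 plasma cell markers that passed the filter was 41.1 to 118 CPM in SSO livers against 17.9 to 51.0 CPM in vehicle livers, lowest in vehicle 4, where Derl3 was highest. The part of plasma cells in the Derl3 values was not tested. Derl1 and Derl2 had log2 fold changes of -0.27 ± 0.22 and 0.20 ± 0.19, and Edem2 of -0.24 ± 0.14.

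Selenok, an ER selenoprotein that binds derlins, had the highest log2 fold change of the 34, at 0.50 ± 0.22 (edgeR adjusted p = 0.231). Its SSO libraries ranged from 149.9 to 178 CPM and its vehicle libraries from 80.1 to 161 CPM, with vehicle 2 again on the side of the SSO livers.

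Among genes of translocation, processing and ER exit the median log2 fold change of 7 genes was -0.35. Sec61b, a small subunit of the Sec61 channel, measured 94.1, 90.6, 114 and 94.9 CPM in SSO livers, against 72.2, 72.3, 80.0 and 74.8 CPM in vehicle livers. It was the one gene of the 34 with every SSO library above every vehicle library, and vehicle 2 did not stand apart (log2 fold change 0.40 ± 0.14, edgeR adjusted p = 0.165). The pore subunit Sec61a1 lay at -0.89 ± 0.36 with overlap, and 8.16% of its exon length overlaps a gene on the other strand. Sec24d, a cargo adaptor of the vesicles that leave the ER, lay at -0.61 ± 0.17 without overlap. Ssr1, Ssr3, Spcs2 and Ostc, parts of the machinery that receives and modifies new chains, lay between -0.41 and -0.20, all with overlap.

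By median, members with an exact ERSE match in the promoter lay further below 0 than members with a promoter entry and no such match. Over the 9 genes shown above, the median log2 fold change in SSO livers was -1.09 (range -3.15 to -0.88), all 9 were below 0, and 7 had groups that did not overlap, Canx and Derl3 being the exceptions. Over the 20 genes with a promoter and no ERSE the median was -0.33 (range -1.29 to 0.50), with 6 lower and 1 higher without overlap. For 11 tested genes outside the list that carry the element the median was -0.28. Of these 11, 6 lay below 0, and 1 was lower and 1 higher without overlap. For all 11112 tested genes with a promoter the median was -0.06. Of those, 6095 lay below 0, and 687 were lower and 662 higher without overlap. These are descriptions of gene lists, and no test was made of the difference between them.

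**Figure D4:**
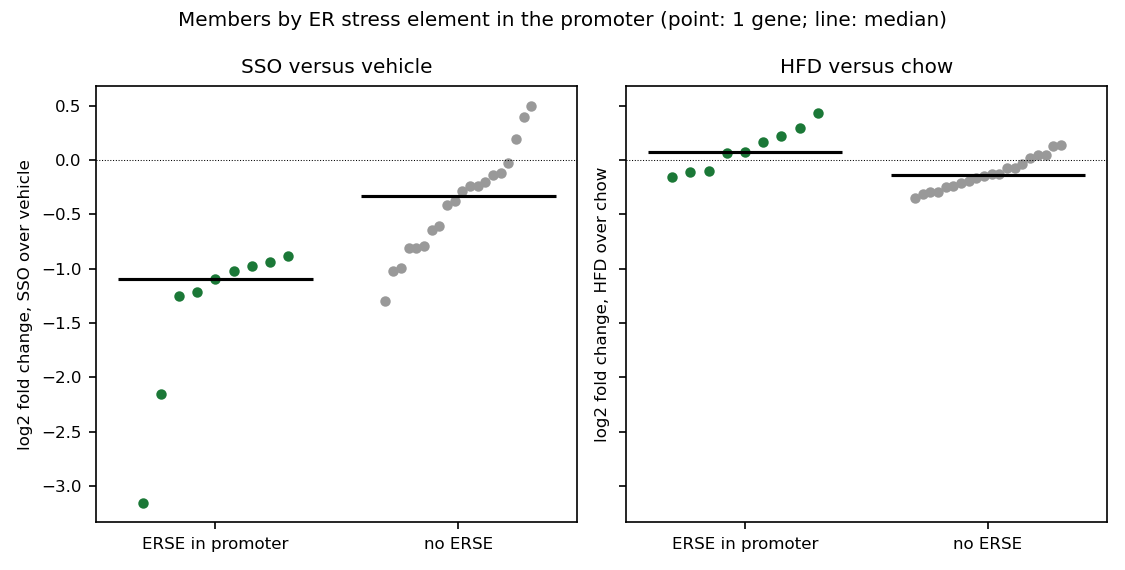
Log2 fold change (y axis) of the members with an ERSE in the promoter (9 genes) and without one (20 genes), SSO over vehicle on the left and HFD over chow on the right; each point is 1 gene and the line is the median. In the left panel the medians are -1.09 and -0.33, and in the right panel 0.07 and -0.14.

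The number of calls in the inhibitor experiment depended on the fit. DESeq2 called 16 of 34 lower (3.97% of all genes), among them Hspa5, Hsp90b1, Calr, Sel1l, Syvn1 and Derl3. EdgeR without the filter on low counts called 8 lower (0.377% of all genes). Limma-voom and edgeR with library size scaling called 0 of 34. Of all 15788 genes, limma-voom called 57 higher and 11 lower, and library size scaling 33 higher and 4 lower. With limma-voom the median of the 34 genes was -0.67, against -0.003 over all genes. Library size scaling moved the median of all genes to -0.20 and that of the 34 genes to -0.96. Without vehicle 2, edgeR called 19 of 34 lower (9.23% of all genes) and 1 higher, Selenok (6.96% of all genes), and the median became -0.85. Vehicle 2 was the lowest vehicle library for 27 of 34 genes, so leaving it out lowers most log2 fold changes by construction. Without vehicle 4 it called 2 lower, Creld2 and Sdf2l1 (1.43% of all genes).

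Without vehicle 1, without vehicle 3 or without any 1 SSO library, edgeR called 0 of 34. The median of the 34 genes in these fits lay between -0.80 and -0.60, against -0.045 to -0.030 over all genes. In the fits without vehicle 1 or an SSO library no gene of the whole table was called. Without vehicle 3, 15 of all 16142 genes were called higher and 1 lower. Without both vehicle 1 and vehicle 3, 0 of 34 were called by edgeR, where 49 of all 16692 genes were called higher and 13 lower. In that fit 32 of 34 were below 0, and the median was -0.51, against -0.01 over all genes. Creld2 kept a log2 fold change between -2.42 and -2.01 over the 8 fits that left out 1 library, with an edgeR adjusted p of 0.000157 to 0.180. Hspa5 ranged from -1.46 to -1.08, with an edgeR adjusted p of 0.00636 to 0.286.

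Of the 125 genes in 6 other lists of ER pathways, edgeR called 0 in either comparison with all libraries. At an unadjusted p under 0.05, 31 were lower (12.5% of all genes) and 4 higher (7.96% of all genes) for SSO. For HFD, 9 were lower (7.47% of all genes) and 4 higher (7.52% of all genes). DESeq2 called 11 lower and 2 higher for SSO (3.97% and 2.38% of all genes). For HFD it called 2 lower and 1 higher, where 370 and 495 of all 16153 genes were called. Without vehicle 2, edgeR called 26 lower and 3 higher (9.23% and 6.96% of all genes). Without vehicle 4 it called 3 lower, Creb3l2, Ddit3 and Atf3 (1.43% of all genes). With no filter on low counts it called 2 lower, Creb3l2 and Ddit3 (0.377% of all genes).

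Among the sensors and factors upstream, differences were uneven. In the inhibitor experiment, Ern1 measured 67.5 ± 1.79 CPM in SSO livers and 62.2 ± 7.03 CPM in vehicle livers (SD, n = 4 each), and Xbp1, the factor whose mRNA it splices, 176 ± 11.6 CPM and 234 ± 51.5 CPM. Gene counts do not separate spliced from unspliced Xbp1. Atf6 measured 28.8 ± 4.31 CPM in SSO livers and 41.0 ± 9.95 CPM in vehicle livers, and Eif2ak3 10.8 ± 0.835 CPM and 14.0 ± 2.43 CPM. The log2 fold changes of these 4 genes were 0.12, -0.41, -0.51 and -0.38, and all overlapped between the groups. Of the Eif2ak3 exon length, 8.05% overlaps a gene on the other strand. The whole list of 10 sensors and factors had a median of -0.38 and a range from -1.24 to 0.12. Its 2 genes without overlap (5.62% of all genes were lower without overlap) were both lower and singled out after their values were seen. Creb3l2, a membrane-bound factor of the ATF6 kind, lay at -1.24 ± 0.26 (edgeR adjusted p = 0.0789). Mbtps2, a protease that releases ATF6, lay at -0.56 ± 0.22 (edgeR adjusted p = 0.189). Of the Mbtps2 exon length, 28.4% overlaps Yy2 on the same strand, so reads there cannot be assigned by strand.

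In the PERK arm, Ddit3, which encodes the stress factor CHOP, measured 11.0, 13.1, 9.16 and 11.0 CPM in SSO livers, against 25.3, 16.1, 30.9 and 41.6 CPM in vehicle livers. Every SSO library lay below every vehicle library (log2 fold change -1.36 ± 0.26, edgeR adjusted p = 0.0648, and 0.00176 to 0.231 over the fits that left out 1 library). Of the Ddit3 exon length, 6.13% overlaps other annotated exons on the same strand. Atf4, the factor upstream of Ddit3, had the opposite order, with 149, 149, 147 and 173 CPM in SSO livers, against 97.7, 99.8, 119 and 109 CPM in vehicle livers (log2 fold change 0.54 ± 0.15, edgeR adjusted p = 0.116). Atf3, a stress factor of the same arm singled out after its values were seen, measured 3.23, 2.99, 1.5 and 2.61 CPM in SSO livers, against 28.3, 3.49, 31.3 and 12.3 CPM in vehicle livers, without overlap but with vehicle 2 close to the SSO libraries (log2 fold change -2.87 ± 0.60, edgeR adjusted p = 0.0866). The medians of the other lists ranged from -0.16 for 27 further folding and redox genes to -0.49 for 12 genes of the PERK arm, and lay at -0.24 for 26 further ERAD genes.

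Markers of other cell types were read in the same libraries, and edgeR called 0. The summed level of 5 macrophage markers, none of them at 0 in all libraries, was 122 to 227 CPM in SSO livers, against 474, 105, 468 and 136 CPM in vehicle 1 to 4. It was high in vehicle 1 and 3 but not in vehicle 4, where the mean level of the 34 genes equalled that of vehicle 1. Lyz2 was the 1 macrophage marker without overlap. It measured 0.0371, 11.3, 0.428 and 8.01 CPM in SSO 1 to 4, against 189, 23.0, 189 and 41.6 CPM in vehicle 1 to 4. Over the same SSO libraries Cd68 ranged only from 18.7 to 22.1 CPM, Csf1r from 29.3 to 46.5, Adgre1 from 2.64 to 4.72 and Clec4f from 68.8 to 146. Lyz2 was thus near 0 in SSO 1 and SSO 3 while the other markers were not, and the reason was not tested. Adgre1, Cd68 and Csf1r had log2 fold changes below 0, with overlap. Clec4f went the other way, with means of 104 CPM in SSO livers and 70.0 CPM in vehicle livers. Its groups overlapped (log2 fold change 0.56 ± 0.31, edgeR adjusted p = 0.326). The summed level of 4 cholangiocyte markers, none of them at 0 in all libraries, was 31.4 to 41.7 CPM in SSO livers, against 133, 42.2, 161 and 39.0 CPM in vehicle 1 to 4. Most of that sum was Spp1 (log2 fold change -1.58 ± 0.48, edgeR adjusted p = 0.135, with overlap), while Krt19 lay the other way without overlap, at 2.30 to 5.35 CPM in SSO livers and 0.635 to 2.26 CPM in vehicle livers. Among vehicle libraries this sum, like the macrophage sum, was high in vehicle 1 and 3. Sums of hepatocyte, plasma cell, endothelial, stellate, neutrophil, T cell and pancreas acinar markers overlapped between the groups. The part of macrophages and cholangiocytes in the result was not tested.

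HFD and chow livers did not separate in the same genes. Of the 34 genes edgeR called 0 higher and 0 lower, where 1.6% of all 15589 genes were called higher and 0.718% lower, and DESeq2 and limma-voom also called 0. At an unadjusted p under 0.05, 1 gene was lower, Derl2 (7.47% of all genes), and 0 were higher (7.52% of all genes). The groups did not overlap in Canx, which was higher (11.2% of all genes), and in Derl2, which was lower (10.8% of all genes). The median log2 fold change was -0.07, against -0.02 over all genes, with a range from -0.35 for Dnajb9 to 0.43 for Pdia6.

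The spread within the chow group was large. The mean log2 CPM over the 34 genes was 7.42, 7.16 and 7.14 in HFD 1 to 3, against 6.82, 6.92 and 7.81 in chow 1 to 3. Chow 3 was the highest of the 6 libraries for 29 of 34 genes (22.6% of all genes), and HFD 1 the highest HFD library for 29 of 34 (32.5% of all genes). With library size scaling, 25 of 34 genes lay above 0 and the median was 0.11, but the median of all genes moved to 0.13 as well. Among cell type markers edgeR called 0 here too. The summed level of 4 stellate markers was 192 to 219 CPM in HFD livers and 263 to 287 CPM in chow livers, mostly Dcn. For 4 cholangiocyte markers it was 102 to 108 CPM and 54.6 to 82.6 CPM, mostly Spp1, with Krt19 and Epcam the other way. The sums of the other cell types overlapped. The part of cell types in the result was not tested.

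Chaperones showed this pattern most clearly. Hspa5 measured 926, 821 and 753 CPM in HFD livers, against 669.9, 494 and 1213 CPM in chow livers (log2 fold change 0.07 ± 0.31). Creld2 measured 70.0, 43.7 and 61.3 CPM in HFD livers, against 32.9, 23.2 and 132 CPM in chow livers (log2 fold change -0.10 ± 0.69). Sdf2l1 measured 64.0, 40.3 and 38.6 CPM, against 19.7, 18.2 and 119 CPM (log2 fold change -0.13 ± 0.80). In each of these genes the 3 HFD libraries lay between chow 1 and 2 on one side and chow 3 on the other.

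The same held for several further genes. Hsp90b1 measured 474, 386 and 391 CPM in HFD livers, against 292, 277 and 546 CPM in chow livers. Hyou1 measured 319, 249 and 203 CPM, against 196, 140.4 and 417 CPM. Pdia4 measured 249, 212 and 209 CPM, against 144, 172 and 333 CPM. The 3 log2 fold changes were 0.17 ± 0.26, 0.04 ± 0.40 and 0.05 ± 0.30, all smaller than their errors.

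For Calr the values were 914, 791 and 799 CPM in HFD livers, against 607, 691 and 1498 CPM in chow livers (log2 fold change -0.16 ± 0.33). For Manf they were 112, 89.3 and 79.2 CPM, against 89.5, 48.9 and 197 CPM (-0.26 ± 0.48), and for Dnajb9 102, 83.3 and 76.4 CPM, against 90.6, 69.5 and 173 CPM (-0.35 ± 0.32). Chow 1 thus reached into the HFD range for Manf and Dnajb9. Canx was the exception among the chaperones, with 333, 329.5 and 319.7 CPM in HFD livers and 264, 282 and 297 CPM in chow livers. Its groups did not overlap, and chow 3 was in place with the other chow libraries (log2 fold change 0.22 ± 0.14, edgeR adjusted p = 0.500).

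ERAD genes followed different libraries. Syvn1 measured 285, 191 and 210.0 CPM in HFD livers, against 143, 88.6 and 328 CPM in chow livers, in the manner of the chaperones. Herpud1 measured 227, 186 and 257 CPM in HFD livers, against 175, 369 and 251 CPM in chow livers, so that chow 2 and not chow 3 was highest. Sel1l measured 135, 138 and 119 CPM, against 109, 164 and 215 CPM, and Edem1 237, 240.3 and 197 CPM, against 177, 189 and 324 CPM. All 4 groups of values overlapped between the diets.

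Derl3 was low in both diets, at 5.24, 1.81 and 4.99 CPM in HFD livers, against 0.308, 4.39 and 6.88 CPM in chow livers. Derl2 measured 82.9, 86.6 and 72.3 CPM in HFD livers, against 106, 92.0 and 99.1 CPM in chow livers, which did not overlap (log2 fold change -0.30 ± 0.13, edgeR adjusted p = 0.321). Sec61b measured 62.9, 48.7 and 52.7 CPM in HFD livers, against 50.2, 48.3 and 88.9 CPM in chow livers. The list of 10 sensors and factors had a median of 0.07, with a range from -0.26 for Atf6 to 0.39 for Creb3l2. Of the 10, 0 passed an unadjusted p under 0.05, where 7.47% of all genes were lower and 7.52% higher. The 12 genes of the PERK arm ranged from -1.29 for Ddit4 and -1.25 for Asns to 0.61 for Atf3, with a median of -0.37. Of the 12, 4 were lower at an unadjusted p under 0.05 (7.47% of all genes) and 3 lower without overlap (10.8% of all genes).

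The comparison was also read without chow 3, which sets the chow mean. Chow 3 was the highest of the 6 libraries for 29 of 34 genes, so leaving it out raises most log2 fold changes by construction. That fit therefore cannot decide whether the diets differ in these genes. EdgeR then called 2 of 34 higher, Sdf2l1 and Pdia6 (1.46% of all genes), 28 of 34 lay above 0, and the median log2 fold change was 0.28. At an unadjusted p under 0.05, 11 of 34 were higher (7.63% of all genes) and 0 lower (7.31% of all genes) in that fit. Sdf2l1 had a log2 fold change of 1.33 ± 0.23 there (adjusted p = 0.0287) and Pdia6 of 0.83 ± 0.17 (adjusted p = 0.0464). Without any other 1 library 0 of 34 were called, and the median lay between -0.20 and -0.02. With the 6 libraries together, the difference between the diets was smaller than the spread between chow livers for most of these genes.

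The 2 experiments had separate control livers, times and sexes, and the difference between them was not tested. Set side by side, Creld2 had a log2 fold change of -2.15 ± 0.36 for SSO over vehicle and -0.10 ± 0.69 for HFD over chow, and Hspa5 -1.26 ± 0.31 and 0.07 ± 0.31. The 9 ERSE genes had medians of -1.09 and 0.07. In both experiments 1 control library lay apart from its own group in these genes, vehicle 2 below the other vehicle livers and chow 3 above the other chow livers.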

How the data were processed

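The authors deposited raw counts, 1 column per library and 1 row per Ensembl identifier, without normalization. The submitters' processing notes list HISAT2 2.2.1, featureCounts 2.0.2, Trim Galore 0.6.1, DESeq2 and GRCm38, in no stated order. How strand was set and which annotation was counted is not given in the sources used here. Symbols, exon lengths and overlaps came from GENCODE M21 (55141 of 55487 identifiers matched; Ddit3 matched more than 1 identifier, and the older was used), and promoters from RefSeq.

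Each experiment was fitted alone in edgeR 4.0.16 (R 4.3.3): TMM scaling, filterByExpr, robust quasi-likelihood test, Benjamini-Hochberg adjustment over all genes tested, called under 0.05. DESeq2 1.42.0, limma-voom (limma 3.58.1), library size scaling, no filter, no mitochondrially encoded genes and left-out libraries were the alternatives. The scripts were tested on simulated data. The labels hold 1 record per group, so columns were assigned by name. The labels name 8 mice per group for the inhibitor experiment and the table holds 4 libraries of each; where nothing says that libraries came from separate animals, p-values measure the spread between libraries. Replicate libraries all differed by more than sampling noise, and each was counted once.

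Members and lists were chosen with earlier results of these data known. Per-library values are given for members called and for 16 members named by rule whatever their values, and otherwise ranges or fold changes. Dnajb11, Dnajc3, Pdia3, Pdia6, Derl2 and Selenok were added to these after their values were seen. Outside the list, Creb3l2, Mbtps2, Atf3, Ddit4, Asns, Spp1 and Krt19 were also added then. The same holds for the other single macrophage, cholangiocyte and stellate markers named. A table of macrophage counts was not used here.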

Additional observations from a re-analysis of the deposited data

Results flagged for a closer look

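In 2 of 68 groups of 4 libraries (34 genes in SSO and in vehicle livers), 1 library stood far from the other 3, where chance flags about 1 in 20. Both were SSO 2 as the highest SSO library. Derl2 measured 122 CPM in SSO 2 and 113 to 115 CPM in the other 3, with a gap of 0.854 of the group's range. Derl3 measured 7.68 CPM in SSO 2 and 3.64 to 4.15 CPM in the other 3, with a gap of 0.874 of the range. Both gaps exceed Dixon's 95% critical value for 4 libraries. SSO 2 was the lowest SSO library for 27 of 34 genes, so these were genes in which it went the other way. The groups of 3 in the diet experiment were not examined in this way.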

How the results depend on the processing

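In the inhibitor experiment the count of members called lower was 1 as reported, 16 with DESeq2, 8 with no filter on low counts, 1 without mitochondrially encoded genes, and 0 with library size scaling, with limma-voom and without vehicle 1 and vehicle 3 together. Leaving out 1 library gave 0 to 19 called lower and 0 to 1 called higher. Of 560 values of single genes under alternatives, for the 34 members and 6 genes of the other ER lists, 504 kept their side of the threshold, 47 became called (42 of members) and 9 lost the call, all 9 being Creld2 (log2 fold change -2.37 to -1.86, edgeR or limma adjusted p 0.0619 to 0.201). In the diet experiment leaving out 1 library gave 0 to 2 members called higher, the 2 without chow 3. Of 440 values there, 438 were counted as unchanged. Without chow 3, Pdia6 became called, and Sdf2l1 changed sign and became called (log2 fold change 1.33, -0.13 with all libraries, -0.54 to 1.33 over the 6 left out). A sign change of an uncalled value smaller than its error was counted as no change. Such sign changes were common in the diet experiment, where 15 of 34 members lay above 0 with all libraries and 28 without chow 3. No paired analysis was possible because each group has only 1 replicate number in the labels and the columns carry none that pairs mice. A count of 0 allows up to 0.0752 to 0.119 CPM (3 counts per library), for counting error only, and every member lay above that limit in every library. The causes of these changes were not tested.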
